A study of Mus musculus with 14 samples.

Results

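MyoG binding was compared between activated and quiescent muscle stem cells (ASCs and QSCs) from 6 ChIP-seq peak lists, 3 per state. Peaks of the 6 lists that overlapped by at least 1 bp were merged into regions, and a region was called recurring when at least 2 of the 3 libraries of a state had a peak in it. Of 2198 merged MyoG regions, 225 were recurring, 221 in ASCs (10.1% of all) and 10 in QSCs (0.455%), with 6 recurring in both states. The rule itself used this contrast, so nothing is read from these shares. The 12 MyoG and MyoD lists of the series together gave 6557 merged regions.

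The mice were wild-type animals that carried a mito-Dendra2 allele, a fluorescent mitochondrial protein, switched on by Pax7-Cre(ERT2) in muscle stem cells (MuSCs) and inherited by their progeny. All received tamoxifen at 75 mg/kg on 5 days, followed after 2 days by 50 µL of 1.2% BaCl2 into the tibialis anterior, a shin muscle, while the contralateral muscle was given saline. At 2 days post injury (dpi), ASCs were sorted from injured muscle as CD34-, Dendra2+, DAPI- cells and QSCs from the saline-injected muscle as CD34+, Dendra2+, DAPI- cells. After crosslinking in 1% formaldehyde and shearing to fragments near 500 bp, MyoG was pulled down with the antibody F5D. The age of the mice and any pooling of animals per library are not given in the sources used here, and the reach of the driver limits both groups to cells of the Pax7 lineage. Peak lists hold no expression values, so the sorted states could not be checked against marker transcripts.

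MyoG (myogenin) is a basic helix-loop-helix transcription factor that is switched on when activated MuSCs commit to differentiation, and it drives genes of the contractile apparatus and of fusion. Like its relative MyoD, which acts earlier in the lineage, it pairs with E proteins such as Tcf12 and binds E-boxes, whose core is CANNTG. The form most often linked to muscle factors is CAGCTG.

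Of the 225 recurring regions, 146 lay in multi-copy gene clusters and 79 at single-copy genes. A region was counted as multi-copy when its gene symbol belonged to a multi-copy family, such as immunoglobulin variable segments (Ighv) or olfactory receptors, or when its 1-Mb bin held at least 10 recurring regions of a state. The remaining regions were split by symbol into predicted gene models (symbols of the Gm or Rik type, 50 regions) and named genes (29 regions, 1 of which carried an Ensembl identifier only).

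The sequences shown here are the RefSeq promoter windows (GRCm38.p6, which is mm10; 250 bases before to 50 after a start site) that lay under or beside recurring MyoG regions. Recurring regions overlapped 10 of the 32851 windows, from 9 genes. Capitals mark each CANNTG, which reads the same on both strands. The first pair shows how alike the copies of 1 cluster were, and the other windows show starts covered by peaks at a RIKEN transcript, beside Adam29 and in the chromosome 13 cluster.
Gm4302 promoter window, chr10:100340586-100340885, plus strand: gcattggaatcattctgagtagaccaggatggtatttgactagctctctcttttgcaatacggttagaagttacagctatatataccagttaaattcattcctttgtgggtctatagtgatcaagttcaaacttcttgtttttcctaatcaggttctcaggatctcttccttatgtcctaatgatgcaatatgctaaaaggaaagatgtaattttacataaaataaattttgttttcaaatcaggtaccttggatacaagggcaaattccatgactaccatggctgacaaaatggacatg
Gm4307 promoter window, chr10:100361088-100361387, plus strand: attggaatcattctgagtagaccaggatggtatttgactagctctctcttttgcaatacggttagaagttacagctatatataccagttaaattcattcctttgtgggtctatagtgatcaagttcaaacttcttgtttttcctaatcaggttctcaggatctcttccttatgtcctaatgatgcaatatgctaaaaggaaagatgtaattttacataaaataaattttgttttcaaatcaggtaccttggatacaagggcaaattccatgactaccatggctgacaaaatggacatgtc
1600014C10Rik promoter window, chr7:38182967-38183266, plus strand: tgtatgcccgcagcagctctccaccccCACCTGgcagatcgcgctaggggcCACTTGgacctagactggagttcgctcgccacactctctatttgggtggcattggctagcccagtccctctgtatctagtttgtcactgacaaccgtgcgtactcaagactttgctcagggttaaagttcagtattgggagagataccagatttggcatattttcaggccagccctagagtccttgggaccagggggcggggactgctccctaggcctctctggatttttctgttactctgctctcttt
Gm51598 promoter window, chr8:55498215-55498514, plus strand: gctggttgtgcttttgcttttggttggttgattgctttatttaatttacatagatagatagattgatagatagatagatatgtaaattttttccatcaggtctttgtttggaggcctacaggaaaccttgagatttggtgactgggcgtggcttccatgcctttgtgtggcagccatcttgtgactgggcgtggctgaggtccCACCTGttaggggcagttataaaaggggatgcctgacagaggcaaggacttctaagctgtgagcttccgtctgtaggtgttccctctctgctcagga
Gm40987 promoter window, chr13:65990947-65991246, minus strand: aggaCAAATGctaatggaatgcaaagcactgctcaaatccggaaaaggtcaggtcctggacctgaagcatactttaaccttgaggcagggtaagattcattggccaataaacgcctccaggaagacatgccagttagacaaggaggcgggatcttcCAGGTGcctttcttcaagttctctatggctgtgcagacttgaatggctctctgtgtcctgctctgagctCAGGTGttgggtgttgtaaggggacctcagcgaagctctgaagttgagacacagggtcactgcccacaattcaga
The Gm4302 and Gm4307 windows were identical over 298 compared bases at an offset of 2 bases, and neither held a CANNTG. The window of Gm4312, another copy in the cluster, differed from Gm4302 at 5 of 299 bases. Of the 10 windows under recurring regions, 6 held CANNTG (against 72.3% of all windows) and 0 held CAGCTG (against 16.3%). A match is a string of letters and not a measured site, and its absence from a window says nothing about the rest of the region.

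The ASC libraries listed 916, 605 and 639 MyoG peaks and the QSC libraries 120, 162 and 167. The ranges did not overlap, and the difference of the means was 2.26 on the log2 scale (exact two-sided permutation, p = 0.1, adjusted p = 0.1). With 3 libraries against 3 the smallest p-value is 0.1, so none of the 8 comparisons tested here could pass 0.05. A peak score is minus 10 times the log10 of its p-value, and median scores were 56.5, 58.3 and 58.3 in ASCs and 53.8, 54.2 and 53.4 in QSCs, near the lowest score of 50.0. Read depth is unknown, and a library with fewer reads can list fewer peaks.

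By state, 207 regions were ASC-specific (at least 2 ASC libraries, no QSC library), which is 9.42% of all merged regions. Only 3 were QSC-specific by the converse rule (0.136%). Of the ASC-specific regions, 84 had a peak in all 3 ASC libraries. Without ASC replicate 1, 2 or 3 the ASC-specific regions numbered 124, 128 and 130, since 2 of 2 libraries then had to have the peak. Most merged regions were found once, 1555 in a single ASC library and 416 in a single QSC library. The share of single-copy regions that was ASC-specific was 4.08% (71 of 1741), against 29.8% of multi-copy regions (136 of 457). The crowded-bin rule selects places with many recurring regions, so the latter share is in part fixed by the definition. When symbol families alone marked multi-copy regions, 130 ASC-specific regions counted as single-copy. Under the main rule, crowded bins included, 24 did when predicted gene models were also set aside. By gene, 87 of the 1542 genes with a MyoG peak (5.64%) had an ASC-specific region and no QSC peak at any distance, 48 of them single-copy.

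Most recurring ASC regions stood in 5 crowded loci, which held 129 of the 225. Peaks were counted over the whole 1-Mb bins of each locus. The chromosome 12 locus (chr12:115187548-115885964) lies in the immunoglobulin heavy-chain variable cluster, whose segments B cells recombine to build antibody genes. It listed 61, 60 and 62 MyoG peaks in the ASC libraries and 0, 0 and 0 in the QSC libraries. Its 43 recurring regions were annotated to 14 Ighv genes, among them Ighv8-11 (6 regions), Ighv1-55 (5) and Ighv8-14 (5), with 17 at promoters and 26 distal. RefSeq places 55 genes in this interval, 38 of them Ighv segments. The highest region, near Ighv1-75 (chr12:115820152-115824200), had scores of 571, 279 and 579 in ASCs. A neighbor (chr12:115825006-115828757) had scores of 239, 203 and 318.

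The chromosome 13 locus (chr13:65469950-66870201) combines predicted genes with zinc-finger genes of the Zfp family, which encode DNA-binding proteins. Its ASC libraries listed 47, 39 and 40 peaks and its QSC libraries none. The 31 recurring regions went to Gm10139 (8 regions), Gm26639, Zfp640 and Zfp998 (6 each) and 4 other genes. RefSeq places 56 genes there, 37 with Gm symbols and 11 vomeronasal receptor genes (Vmn). A promoter region of Zfp998 (chr13:66429190-66433918) had scores of 254, 553 and 180, a spread wide enough that its mean of 329 had an SD of 198. A distal region near Gm26639 (chr13:65648942-65651202) scored 136, 206 and 213.

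On chromosome 5 (chr5:15004269-15712869) the locus holds Speer genes, a rodent family expressed in testis, and predicted relatives. MyoG peaks numbered 36, 32 and 33 in ASCs and 0, 0 and 2 in QSCs. Of its 30 recurring regions, 18 were given to Gm21847, 13 of these in introns. The top pair of regions (chr5:15640420-15645083 and chr5:15630075-15634628) scored 302, 276 and 295, and 227, 123 and 286. MyoD peaks in this locus numbered 1, 2 and 2 in ASCs and 8, 2 and 3 in QSCs, so both antibodies had listed peaks there.

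The chromosome 8 locus (chr8:20140070-20835815) consists of predicted genes such as Gm21092, Gm20778 and Gm21119. It listed 21, 18 and 21 ASC peaks and no QSC peak, and its 13 recurring regions were wide, with a median of 9127 bp. The highest by rank were near Gm21092 (chr8:20536818-20547006; scores 120 and 119 in replicates 2 and 3) and in exon 8 of 10 of Gm21119 (chr8:20636629-20646219; 93.4 and 106 in replicates 1 and 2). The chromosome X locus (chrX:126692879-126778324) was the only one of the 5 with recurring QSC regions. It listed 13, 11 and 17 ASC peaks and 4, 5 and 2 QSC peaks. All 12 recurring regions were distal, near 4932411N23Rik (10) and Gm7746 (2), and 11 recurred in ASCs and 4 in QSCs. Near Gm7746 (chrX:126692879-126695127) the ASC scores were 120, 225 and 108 and the QSC scores 51.2 and 66.9 in replicates 1 and 2. Because the loci were defined by their recurring regions, these counts are a description and were not tested.

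**Figure D1:**
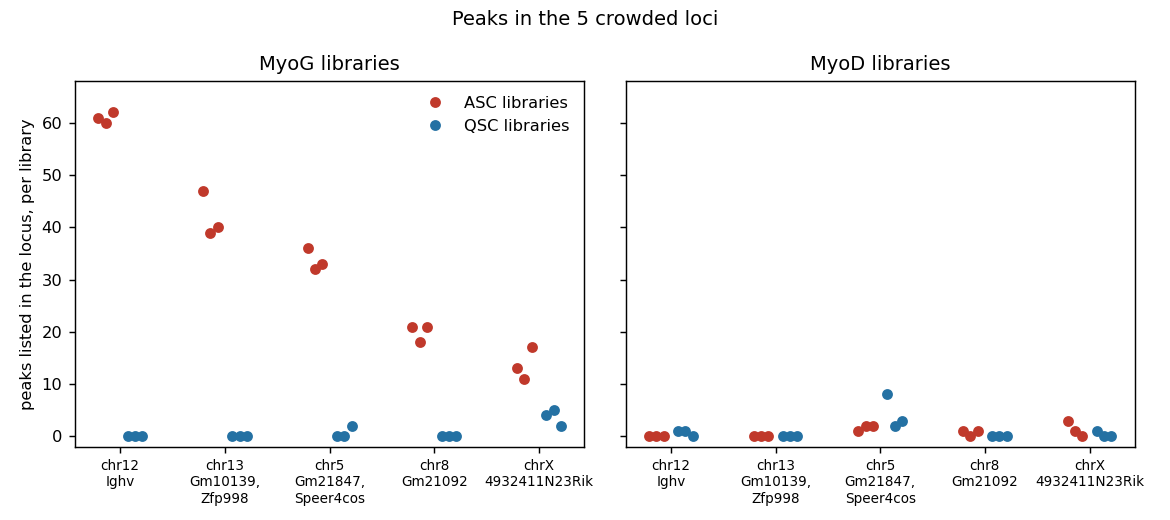
Peaks listed per library in the 5 crowded loci (vertical axis, number of peaks; horizontal axis, locus by chromosome and leading genes), with MyoG libraries at left and MyoD libraries at right; each point is 1 library, red for ASC and blue for QSC. MyoG peaks in ASCs range from 60 to 62 at the Ighv locus with none in QSCs, while no MyoD library lists more than 8 peaks in any of these loci.

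Outside the crowded loci, smaller groups of gene copies also recurred. Speer4e had 3 recurring ASC regions, Naip6 (an inflammasome sensor gene) 2, Mrgpra3 (an itch receptor of sensory neurons) 2, and the X-linked Btbd35f29, Btbd35f6, Spin2f and Spin2g together 7. The predicted gene models counted as single-copy included tandem copies of the same kind: Gm4302, Gm8711, Gm4307 and Gm4312 lay within a short interval of chromosome 10, and Gm14370 and Gm14365 within another on X. To describe this by sequence, each promoter window was scored for 20-base words that also occurred in the window of another gene. At least 50% of the words were shared in 9 of 13 windows of recurring predicted genes (69.2%; 12 of 31 genes had a window). The same held for 4 of 6 windows of multi-copy families, for 0 of 23 windows of recurring named genes (17 of 23 genes had a window) and for 5.5% of all windows. The predicted models are therefore described apart from the named genes here.

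Among predicted models, the strongest recurring region lay near Gm5614 (chr9:35304698-35306088), with ASC scores of 400, 351 and 355 and no QSC peak. MyoD peaks covered it in 1 ASC and 2 QSC libraries. Around 1600014C10Rik on chromosome 7, 5 recurring regions were given to this gene and 2 to the adjacent Gm22203. The strongest of these (chr7:38187523-38190798) scored 200, 180 and 258, and a promoter region of Gm22203 (chr7:38179145-38180615) 65.8, 74.8 and 150. The 1600014C10Rik region over 254 of the 300 bases of its printed window (chr7:38183013-38185168) had scores of 79.0 and 65.6 in replicates 1 and 3. Of the capitals in that window, CACTTG lay inside the region and CACCTG outside it. A distal region near Gm7347 (chr5:26067901-26069919) scored 62.9, 69.7 and 182. The promoter regions at Gm10801 on chromosome 2 had peaks in ASC replicates 1 and 2 only. Their scores were 471 and 58.2 (chr2:98661943-98663438), 185 and 168, and 142 and 112, and each had a MyoD peak in 1 ASC library. In all, 17 promoter regions of predicted models were in 2 ASC libraries and no QSC library, with a median of their mean scores of 72.6. By rank the next were at Gm10222, Gm8711, Gm4340, Gm10557 and Gm14331, with mean scores between 65.3 and 91.8. The rest, at Gm4302, Gm4307, Gm4312, Gm3892, Gm22203, E330021D16Rik, 4930467E23Rik and a second Gm8711 region, had mean scores between 55.8 and 84.2. Of the recurring ASC regions of predicted models, 20 of 50 were at promoters, against 1 of 27 at named genes. Among all merged regions, recurring or not, these shares were 85 of 709 (12.0%) and 89 of 1032 (8.62%). The contrast was not tested.

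At named single-copy genes, the region with the highest score of any MyoG list lay in intron 33 of 47 of Akap9 (ENSMUSG00000040407, chr5:4052154-4054768). Akap9 encodes a large scaffold that anchors protein kinase A at the Golgi and centrosome. Its scores were 518, 550 and 680 in ASCs (mean 583 ± 85.9, SD, n = 3), with no peak in any QSC library and none of MyoD. The lowest of the 3 was above any other ASC score at a named gene.

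Among named-gene regions in all 3 ASC libraries and no QSC library, the next by mean score was in intron 1 of 8 of Ppp2r2b (ENSMUSG00000024500, chr18:42975462-42976469). The gene encodes a regulatory subunit of the phosphatase PP2A, and the region scored 120, 162 and 186 (mean 156 ± 33.4). Adam29, an ADAM family gene of the testis, had 4 distal regions within a short stretch of chromosome 8, each in all 3 ASC libraries. The strongest (chr8:55514194-55515258) scored 103, 97.3 and 172, and another (chr8:55498307-55499438) 110, 103 and 95.1. The latter covered 208 bases of the Gm51598 window printed above, including its single CANNTG. The remaining Adam29 regions (chr8:55518415-55520265 and chr8:55501412-55502750) scored 74.7, 120 and 94.3, and 53.4, 132 and 60.6. ASC replicates 1, 2 and 3 listed 5, 6 and 4 peaks for this gene and the QSC libraries none.

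A distal region near Dpy19l2 (chr9:24541619-24542577), needed for sperm head formation, scored 89.2, 76.1 and 88.7. Ccr1, a chemokine receptor of myeloid cells, had a distal region in all 3 ASC libraries (chr9:123931483-123934074; scores 54.3, 126 and 107) and a second in replicates 2 and 3. The only promoter region among named genes was at Cobl, which encodes the actin nucleator cordon-bleu (chr11:12374893-12375568, 2 to 3 kb from the start site). It scored 84.6, 58.4 and 83.3. None of these genes had a QSC peak in the region. Below Akap9, the scores of Ppp2r2b overlapped those of Adam29 and Ccr1 and lay above those of Dpy19l2 and Cobl. Scores of the remaining genes overlapped from gene to gene. The scores were not tested, so no order among these genes is drawn. Dpy19l2 had a MyoD peak in 1 ASC library and the others none.

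At other named genes, regions shared by only 2 ASC libraries are given here after their values were seen. Intron 2 of 14 of Zswim6 (chr13:107858174-107860251) scored 124 and 267 in replicates 2 and 3 and had no peak in replicate 1. Vps33a, which acts in lysosomal trafficking, scored 73.1 and 111 in intron 8 of 12, and the potassium channel gene Kcnq1 73.5 and 88.1 in intron 15 of 15. Cdh18, a cadherin, had scores of 67.5 and 55.6 in ASC replicates 1 and 2 and of 60.5 in QSC replicate 2, so the states overlapped. The mean scores of the remaining regions, at Dynlt2a2, Commd10, Pop4, Fam205a3, Them7 and ENSMUSG00000095779, lay between 54.9 and 76.5. Kcnq1, Pop4 and ENSMUSG00000095779 also had peaks elsewhere, so that all 3 ASC libraries listed these genes. Of the named-gene regions, 12 of 27 were in all 3 ASC libraries (44.4%), against 72 of 144 multi-copy regions (50.0%).

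**Figure D2:**
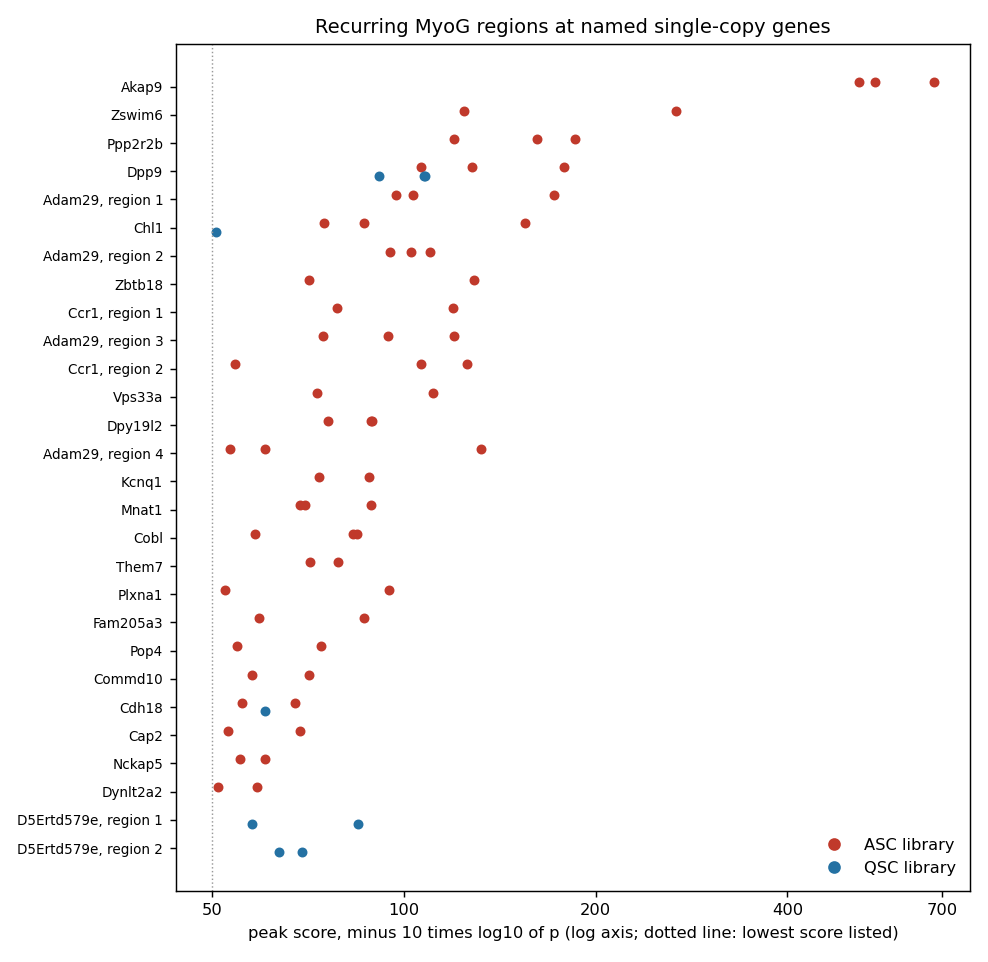
Peak scores (horizontal axis, minus 10 times log10 of p, log axis) of the recurring regions at named single-copy genes (rows, ordered by mean ASC score); each point is 1 library with a peak, red for ASC and blue for QSC. Akap9 lies at 518 to 680, Dpp9 has points of both states, and the D5Ertd579e regions have QSC points only.

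Recurring QSC regions were few. Of the 1542 genes with any MyoG peak, 15 (0.973%) had peaks in at least 2 QSC libraries, against 207 (13.4%) in at least 2 ASC libraries. Dpp9, a dipeptidyl peptidase, was the only gene with a region in all 6 MyoG libraries (ENSMUSG00000001229, intron 10 of 20, chr17:56199600-56200567). Its scores were 106, 179 and 128 in ASCs and 108, 108 and 91.4 in QSCs, so the states overlapped. All 6 MyoD libraries also had a peak there.

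D5Ertd579e (ENSMUSG00000029190) was the only single-copy gene with QSC-specific regions. Both lay in intron 2 of 8. The first (chr5:36630167-36630909) scored 63.7 and 69.2 in QSC replicates 2 and 3, and the second (chr5:36660842-36661509) 57.8 and 84.8 in replicates 1 and 3. Every QSC library thus had at least 1 MyoG peak in this intron, no ASC library did, and no MyoD library had a peak in either region. The third QSC-specific region, near Olfr532 (chr7:140438229-140439170), scored 53.0 and 50.5 in replicates 1 and 3, close to the lowest score listed. These regions were not tested. The number of QSC-specific regions was 1, 2 and 0 without QSC replicate 1, 2 and 3.

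The other recurring QSC regions also had ASC peaks. Near Gm9075 (chr12:3109342-3110572) the ASC scores were 197, 135 and 139 and the QSC scores 65.6 and 75.4 in replicates 2 and 3. Near Gm371 (chrX:94911107-94917310) the ASC scores were 154 and 125 in replicates 1 and 2, and the QSC scores 80.9, 101 and 55.6. The last 4 belonged to the chromosome X locus. At 4932411N23Rik (chrX:126752624-126754877), for example, QSC scores of 105 and 98.1 lay within the ASC range of 72.6 to 177. Distal positions made up 7 of the 10 recurring QSC regions, introns 3 and promoters 0. Of all 2198 merged regions, 58.4% were distal, 24.4% intronic and 12.6% at promoters. With 10 regions, no difference is read from these counts.

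Peaks were next compared by the part of the gene they covered. Promoter peaks, within 3 kb of a start site, made up 14.4%, 17.2% and 14.9% of the ASC lists and 7.5%, 9.26% and 6.59% of the QSC lists. Intronic peaks made up 21.3%, 21.2% and 21.8% in ASCs and 30.8%, 31.5% and 31.7% in QSCs. In both cases the ranges were apart. The ASC minus QSC differences were 7.71 and -9.95 percentage points (exact permutation, p = 0.1, adjusted p = 0.1 for each). Without multi-copy clusters they were 4.01 and -6.04, in the same directions. Restricted to promoters within 1 kb, the first was 4.57, and with each list cut to its 120 highest peaks, the differences were 16.4 and -17.2. That cut left QSC replicate 1 whole and kept only the highest-scoring peaks of the ASC lists. Peaks scoring 80 or more numbered 145, 97 and 122 in ASCs and 8, 4 and 9 in QSCs. The cut therefore sets lists of unlike scores against each other and does not separate list length from score.

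Distal intergenic shares lay closer together, at 59.4%, 58.3% and 59.9% in ASCs and 58.3%, 53.7% and 53.9% in QSCs. The difference was 3.91 points (exact permutation, p = 0.1, adjusted p = 0.1), and among peaks scoring 80 or more it turned to -7.52 (exact permutation, p = 0.4), with only 8, 4 and 9 peaks left in the QSC lists. Median peak width was 669, 643 and 668 bp in ASCs and 638, 623 and 624 bp in QSCs, a difference of 31.7 bp (exact permutation, p = 0.1, adjusted p = 0.1). It was -7.0 bp without multi-copy clusters and -81.5 bp at the stricter score, so its direction depended on both settings.

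Peaks given to multi-copy families made up 16.4%, 23.3% and 23.8% of the ASC lists and 8.33%, 6.17% and 4.79% of the QSC lists, a difference of 14.7 points. It was 29.2 points among peaks scoring 80 or more, 30.0 with lists cut to equal length and 24.2 with predicted models counted as multi-copy. The share of peaks that overlapped a peak of another replicate was 21.7%, 33.4% and 31.1% in ASCs and 5.83%, 5.56% and 4.19% in QSCs, a difference of 23.6 points. For both, the ranges did not overlap (exact permutation, p = 0.1, adjusted p = 0.1). Without multi-copy clusters the replicated share differed by 10.1 points, and with an overlap of 50% of both peaks by 16.7 points. Lists cut to equal length gave 51.4 points. Here, as for the 30.0 points, the cut lists had unlike scores in the 2 states, as given above. At a score of 80 or more the difference was 17.7 points (exact permutation, p = 0.5), with 8, 4 and 9 peaks left in the QSC lists. It was 15 points without ASC replicate 2, where each remaining ASC library has 1 partner instead of 2.

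**Figure D3:**
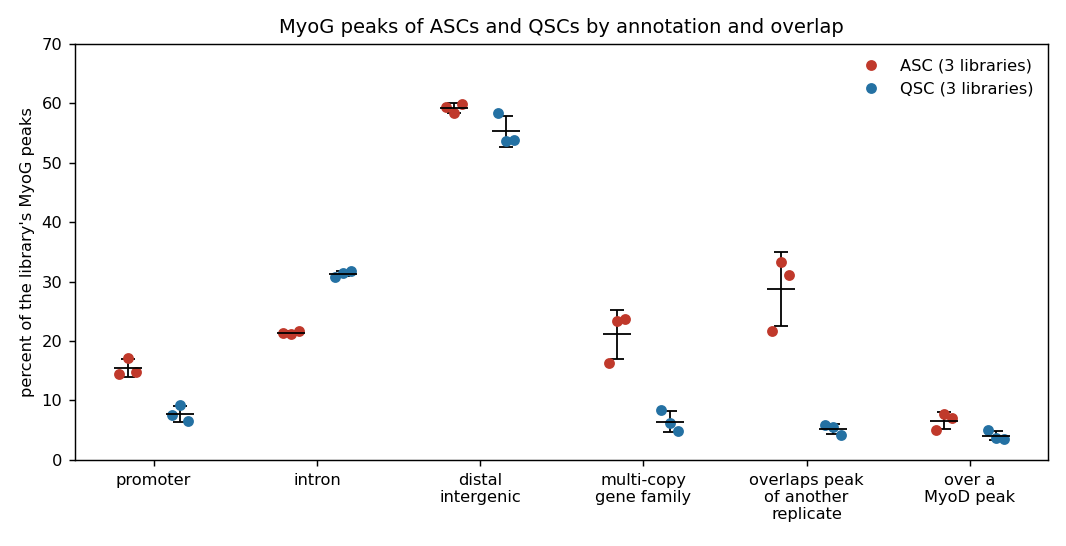
Percent of each library's MyoG peaks (vertical axis) by annotation and by overlap (horizontal axis); points are libraries, red for ASC and blue for QSC, with the mean (wide bar) and SD (capped line) of 3. The ASC points lie above the QSC points for promoters, multi-copy families and overlap with another replicate, and below them for introns.

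Genes can recur without a recurring region of their own name. Each region was named after the gene of its highest-score peak. In ASCs, 207 genes had peaks in at least 2 libraries, and for 112 of them no recurring region carried the gene's name. Peaks of such a gene may still lie in a region named after a neighbor. The named genes of this kind were long. Their median RefSeq span was 428 kb (50 genes with a span), against 144 kb for the 22 named genes with a recurring region, 82.9 kb for the 716 named genes with a peak in 1 library only, and 17.1 kb for all 21896 RefSeq protein-coding genes. In QSCs the 7 named genes of this kind had a median span of 932 kb. A long gene offers more room for unrelated peaks, and its part in recurrence was not tested.

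Several of these long genes are known from muscle and are named here after their values were seen. Dmd, which encodes dystrophin (2390 kb), had 2, 0 and 1 peaks in ASCs and 2, 0 and 0 in QSCs. Sgcd, a sarcoglycan of the dystrophin complex (1018 kb), had 1, 0 and 1 in ASCs and 1, 0 and 0 in QSCs. Ryr3, a calcium release channel, and Nebl, which encodes the Z-disc protein nebulette, each had 1, 1 and 0 in ASCs and none in QSCs. None of these genes gave its name to a recurring region. Genes with peaks in all 3 ASC libraries but no recurring region of their name included Tenm2 (1, 1 and 1), Gpc5 (2, 1 and 2) and Tbl1xr1 (1, 1 and 1). In QSCs, Dlg2 and Col25a1 each had 1, 1 and 0 peaks and Immp2l and Tbc1d5 each 1, 0 and 1.

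**Figure D4:**
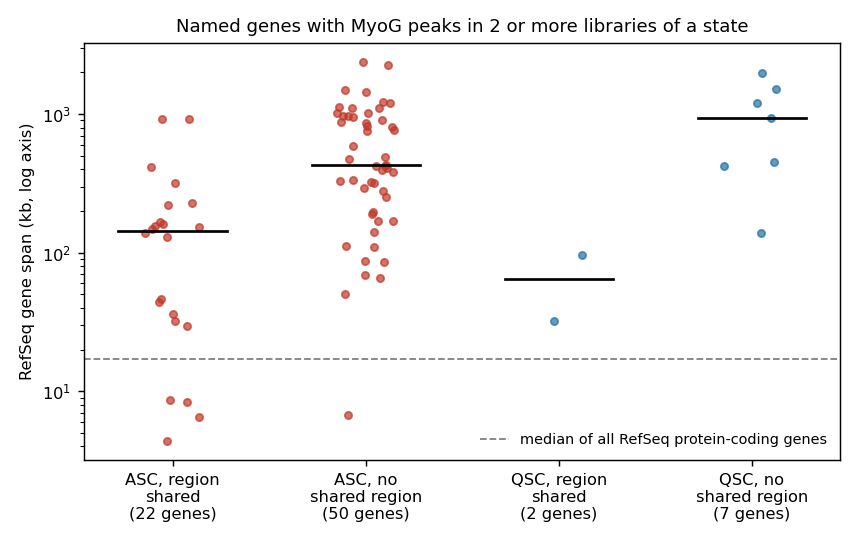
RefSeq span (kb, log axis) of each named gene with MyoG peaks in at least 2 libraries of a state. Genes are split by state and by whether a recurring region carried the gene's name (labeled as shared). Points are genes, black bars medians, and the dashed line the median of all RefSeq protein-coding genes (17.1 kb). Genes without a shared region have medians of 428 kb in ASCs and 932 kb in QSCs, and nearly all points lie above the dashed line.

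The share of muscle-program genes with a MyoG peak was near that of all genes, and none of those listed recurred. Of 128 muscle-related genes in the lists, 6 had a MyoG peak, each in a single library. All 6 were among the 119 that matched a RefSeq protein-coding symbol (5.04%), and 4.33% of all 21896 such genes had a MyoG peak. In at least 2 ASC libraries these shares were 0 of 119 and 0.489% of all. Dmd, Sgcd, Ryr3 and Nebl, given above, were not in these lists. Of 21 myogenic factors and partners, Tcf12 (intron 13 of 20, ASC replicate 2, score 92.5), Mef2a (intron 8 of 11, ASC replicate 2, score 51.7), Myod1 (distal, ASC replicate 2, score 54.0) and Mef2c (distal, QSC replicate 2, score 58.5) had a peak. Myog itself had none. Of 19 quiescence genes, the receptors Notch1 (exon 3, ASC replicate 1, score 58.4) and Notch2 (intron 1, ASC replicate 2, score 55.6) had a peak.

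The lists without any MyoG peak were 32 contractile genes, 8 acetylcholine receptor genes, 11 fusion and adhesion genes, 8 muscle microRNA genes, 9 cell cycle exit genes, 14 calcium-handling genes, 8 muscle stem cell markers and 5 genes the study followed. MyoD peaks covered 64 of the 128 genes, and 49 had them in at least 2 ASC MyoD libraries. Among the 119 with a RefSeq protein-coding symbol, 47 did (39.5%), against 6.33% of all such genes. The ASC MyoD lists held 2262 to 2652 peaks each, and these shares were not tested. Among 41 mitochondrial symbols and prefixes, Cox6c2 (ASC replicate 2) and Mrps28 (ASC replicate 1) had 1 peak each. Of 11 markers of other cell types that a muscle sort could hold, Dcn, a matrix gene of fibroblast-like cells, had 1 distal peak in ASC replicate 3 and the other 10 none.

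MyoG peaks that lay over a MyoD peak of the same state made up 5.02%, 7.77% and 7.04% of the ASC lists and 5.0%, 3.7% and 3.59% of the QSC lists. The difference was 2.51 points (exact permutation, p = 0.1, adjusted p = 0.1), and ASC replicate 1 exceeded QSC replicate 1 by only 0.02 points. It reversed to -21.0 points at the stricter score (exact permutation, p = 0.1) and was 6.36 points without multi-copy clusters. Because the ASC MyoD lists were far longer than the QSC MyoD lists, more ground was covered in ASCs.

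Recurring MyoG and MyoD regions were then set against each other. Of the 221 recurring ASC MyoG regions, 14 (6.33%, 95% Wilson interval 3.81% to 10.4%) lay over a MyoD region that recurred in ASCs. These were 12 of 77 single-copy regions (15.6%, interval 9.15% to 25.3%) and 2 of 144 multi-copy regions (1.39%, interval 0.38% to 4.92%). Among all merged MyoG regions, recurring or not, 85 of 2198 lay over such a MyoD region (3.87%, within the first interval). By class these were 83 of 1741 single-copy regions (4.77%) and 2 of 457 multi-copy regions (0.438%). Multi-copy families held 0 of 77, for which the Wilson upper bound is 4.75%. Named genes held 7 of 27 (25.9%, interval 13.2% to 44.7%). Named-gene regions found in 1 ASC library only lay over a MyoD region in 57 of 733 cases (7.78%, interval 6.05% to 9.94%). The median width was 1065 bp for the recurring named-gene regions and 603 bp for those in 1 ASC library only. A wider region can meet a MyoD region more easily, and the part of width was not tested. The intervals count regions of the same libraries, cover counting error only, and were not turned into a test. Of the 14, 12 had peaks of at least 2 ASC MyoD libraries directly over them. For the other pair, Gm371 (chrX:94911107-94917310) and 4932411N23Rik (chrX:126772406-126774335), the merged MyoD region was wider than the peaks over the MyoG region, with 0 and 1 ASC MyoD libraries directly over it.

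**Figure D5:**
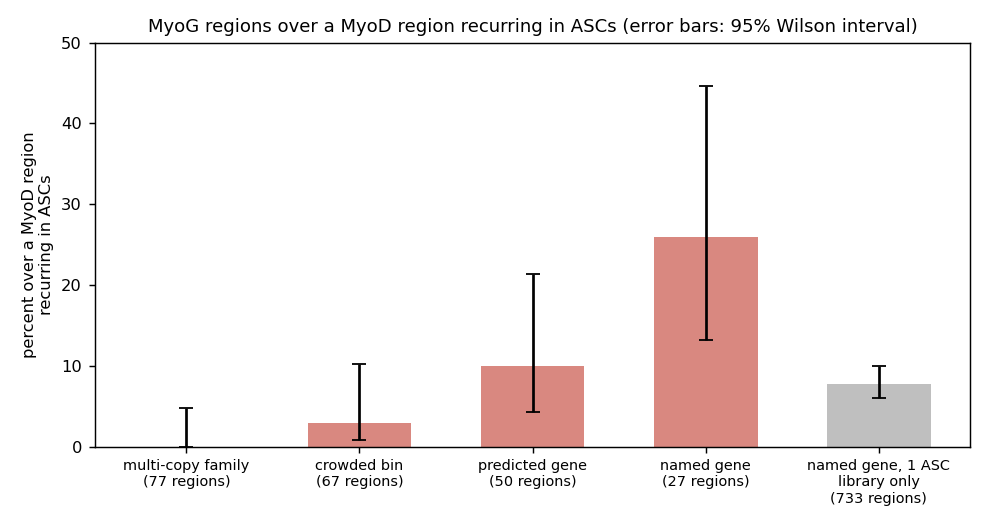
Percent of MyoG regions (vertical axis) that lay over a MyoD region recurring in ASCs, by class of gene (horizontal axis, number of regions in parentheses); red bars are regions recurring in ASCs, the gray bar regions at named genes found in 1 ASC library, and capped lines 95% Wilson intervals. The share is 0 of 77 for multi-copy families and 7 of 27 for named genes.

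The genes at which both factors recurred in ASCs, with MyoD peaks in all 3 ASC MyoD libraries, were Mnat1, Zbtb18, Plxna1, Cap2, Nckap5, Dpp9 and the predicted Gm26416 and Gm23907. Of these 8 regions, Dpp9 alone kept MyoG peaks in at least 2 ASC libraries at a score of 80 or more, while Mnat1, Zbtb18, Plxna1 and Gm26416 had 1 library left and Cap2, Nckap5 and Gm23907 had 0. Mnat1 encodes the assembly factor of the kinase complex that activates cyclin-dependent kinases. Its intron 7 of 7 (chr12:73241834-73242696) had MyoG scores of 68.6, 70.1 and 88.7 in ASCs and no QSC peak, the only one of these with MyoG in all 3 ASC libraries and in no QSC library. Zbtb18, a zinc-finger repressor, had a distal region (chr1:177555319-177556245) with scores of 70.9 and 129 in ASC replicates 1 and 3. Plxna1, a semaphorin receptor, had an intron 3 region (chr6:89347714-89349053) with scores of 94.9 and 52.3 in replicates 1 and 2.

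Cap2, an actin regulator of striated muscle, scored 53.0 and 68.7 in intron 7 of 12 (chr13:46619284-46620337) in replicates 1 and 2. Nckap5 scored 55.2 and 60.4 in intron 1 of 14 (chr1:126484413-126485288) in replicates 2 and 3. The cell adhesion gene Chl1 (exon 5 of 27, chr6:103648583-103649752) had ASC scores of 86.6, 155 and 75.0, a single QSC score of 50.8, and MyoD peaks in 2 ASC and 1 QSC libraries. Apart from Dpp9 and Chl1, none of these genes had a QSC MyoG peak in the region. Gm9075, a second Gm371 region (chrX:94897291-94906443) and 4932411N23Rik (chrX:126767462-126772339) likewise had 2 ASC MyoD libraries over them. By contrast the regions of Akap9, Zswim6, Ppp2r2b and the 4 of Adam29 had no MyoD peak in any of the 6 MyoD libraries.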

How the data were processed

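MyoG ChIP-seq peak lists of 3 ASC and 3 QSC libraries were analysed, with 6 MyoD lists for overlap. The 2 input libraries were left out. Sample titles gave the group and replicate of each library. Per the labels' processing notes, the authors used BWA 0.7.5, MACS, deepTools 3.5.0 and mm10. In the deposited lists each peak has a score (-10 log10 of p), start and end positions (unit: other), a gene and a gene part. Use of the inputs and peak filters are not given in the sources used here. No read counts are listed, so depth is unknown and precision rests on 3 libraries per group.

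Peaks were merged into regions as described in the report, with Python 3.11.15, pandas 2.3.3 and SciPy 1.17.1. Means per state were tested by exact permutation, two-sided (20 relabelings), adjusted by Benjamini-Hochberg over 8 tests. The study calls the 3 libraries of each set biological replicates. How many animals each holds is not given. Gene spans and promoter windows came from RefSeq (GRCm38.p6), matched by symbol. Wilson intervals are 95%.

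Members, gene lists and rules were chosen with earlier results of these data known. Named regions were the 12 single-copy ASC-specific regions of highest mean within-list rank in all 3 ASC libraries, up to 12 at promoters, up to 15 over MyoD regions, up to 20 with peaks in 2 QSC libraries, and 2 per crowded locus, together with Myog, Myod1 and list members. Alternatives were a score of 80 or more (a p-value of 1e-08), gaps of up to 500 bp, overlap of 50% of both peaks, 1 or 3 libraries, chromosomes 1 to 19 and X, equal list lengths, overlapping peaks of a list merged, other definitions of multi-copy and promoter (1 kb), bins with at least 5 recurring regions, removal of multi-copy clusters or of regions with peaks of all 4 groups, leaving out each library, and blocks by replicate number. Region calling was run on simulated lists of 3 ASC and 3 QSC libraries and recovered 200 of 200 planted ASC-specific regions. The planted peaks overlapped by construction, met the rule and lay far apart. The run therefore checks the code only and says nothing about calling in crowded loci. One correction to the gene list (all symbols starting with Spin2) was made after the files were read.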

Additional observations from a re-analysis of the deposited data

Results flagged for a closer look

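The ASC minus QSC difference in the multi-copy family share of peaks had opposite signs with the 2 antibodies, and it was singled out for that reason. With MyoG the differences within replicate numbers were 8.04, 17.1 and 19 percentage points, from shares of 16.4%, 23.3% and 23.8% in ASCs and 8.33%, 6.17% and 4.79% in QSCs. With MyoD they were -20.8, -27.4 and -22.5 points, from 1.4%, 1.41% and 1.61% in ASCs and 22.2%, 28.8% and 24.1% in QSCs. MyoG exceeded MyoD by 38.3 points (exact permutation, p = 0.1, the smallest that 3 differences against 3 allow), so it is not shown at 0.05. This test took same-numbered libraries as pairs, unlike the main comparisons, and whether they are pairs is not known. MyoD lists held 2262 to 2652 peaks in ASCs and 139 to 174 in QSCs. Their peaks given to multi-copy families numbered 37, 32 and 37 in ASCs and 38, 40 and 42 in QSCs. With MyoG such peaks numbered 150, 141 and 152 in ASCs and 10, 10 and 8 in QSCs. The MyoD difference in share thus went with list length, while the number of such peaks was similar in both states. With the MyoG lists cut to equal length the MyoG difference was 30.0 points, with the highest-scoring ASC peaks set against most QSC peaks. The MyoD lists were not cut.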

How the results depend on the processing

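Over 93 alternatives of the 8 tested comparisons, 89 kept the direction. Many of these could not have turned, so the count is no measure of robustness. The replicate block leaves every difference the same by arithmetic. Leaving out a library cannot turn a difference of means when the ranges of the states do not overlap, as held for all 8. The replicated share is an exception, as its overlap partners change with the library left out. The 4 that turned were the distal share (-7.52 points), median width (-81.5 bp) and the share over MyoD (-21.0 points) at a score of 80 or more, and median width (-7.0 bp) without multi-copy clusters. The score limit left 8, 4 and 9 QSC peaks, and 28 of the 50 regions named by the rule were in at least 2 ASC libraries at that score. The multi-copy difference of 14.7 points became 29.2 at that score, 30.0 with equal list lengths and 24.2 with predicted models counted. Equal lengths kept only the highest-scoring ASC peaks but most QSC peaks, so scores differed by state. No p-value could pass 0.05 under any setting.

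Counts moved by their construction when the score limit or the number of libraries changed. At a score of 80 or more, 81 regions were ASC-specific (18 single-copy, 44 genes, 14 single-copy genes), 0 were QSC-specific, and 1.19% of recurring ASC regions lay over MyoD. With a peak required in all 3 libraries these values were 84, 18, 42, 15, 0 and 2.13%. With 1 library they were 1762 regions, 1341 single-copy regions, 1129 genes and 984 single-copy genes, and 419 regions were QSC-specific. The other definitions of multi-copy gave 130 (symbol family only), 24 (predicted models set aside, 19 genes) and, chosen after seeing the data, 110 single-copy ASC-specific regions (at least 5 RefSeq genes of 1 symbol stem within 500 kb), against 71.

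Leaving out 1 library at a time gave 124 to 211 ASC-specific regions, 34 to 73 single-copy, 0 to 4 QSC-specific, 56 to 90 genes and 25 to 51 single-copy genes. The lowest values came without ASC replicate 1 (without 2 and 3: 128 and 130 regions, 39 and 37 single-copy), and 0 without QSC replicate 3. The replicated share was 15 points without ASC replicate 2. The share over MyoD regions ranged from 5.22% to 8.45%. The log2 peak ratio ranged from 2.07 to 2.37, and the other differences were 6.86 to 8.45 (promoter), 3.11 to 5.43 (distal), -10.2 to -9.76 (intron), 13.4 to 17.1 (multi-copy), 15 to 25.9 (replicated) and 1.93 to 3.31 points (over MyoD), and 27.3 to 40.1 bp (width).

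Whether replicate numbers pair the libraries was checked from deviations of peak presence. Same-numbered libraries had correlations of 0.0145, 0.000303 and 0.00418. Most regions had peaks of 1 state only, among them 1555 in a single ASC library and 416 in a single QSC library. The check therefore cannot show whether the libraries are paired. The 8 main comparisons treated the libraries as unpaired. Whether same-numbered libraries share animals is not given in the sources used here. With the replicate block the differences were the same by arithmetic (2.26, 7.71, 3.91, -9.95, 14.7, 23.6, 31.7 and 2.51), all at p = 0.25 by exact sign flips, the smallest possible.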
